A study of Mus musculus with 4 samples.

Results

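The genes described here are 34 genes of the cell cycle, 15 that act in the entry to and passage through S phase and 19 that act in mitosis, among 24972 genes in the deposited table. They were chosen by symbol, and all 34 were found. Normalized counts, which are counts scaled between libraries by the authors, were measured by mRNA sequencing in mandibular dental arches, the tooth-bearing tissue of the mouse lower jaw, dissected at E17.5 (late gestation). The 2 control libraries came from embryos labelled Ascl5WTWT (libraries 15 and 20, called wild type) and the other 2 from embryos labelled Ascl5MutMut (libraries 18 and 14, called mutant), with no other allele and no treatment named. Throughout, wild-type values are given in the order 15, 20 and mutant values in the order 18, 14. The protein made by Ascl5 is a transcription factor of the basic helix-loop-helix class. The labels give neither the sequence change of the variant, nor the strain, nor how many embryos entered a library, so p-values here rest on the spread among 4 libraries, and that spread may be technical.

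In a dividing cell, E2F transcription factors, once freed from retinoblastoma-type proteins, switch on the genes that license and copy DNA. Later in the cycle the MuvB complex, with B-Myb and FOXM1, switches on the genes that build the spindle and segregate the chromosomes. In resting cells a related complex named DREAM represses both sets. In the embryonic jaw these genes are expressed in growing tooth germs, in the mesenchyme around them and in the basal layer of the oral epithelium. Because bulk tissue was measured, fewer cycling cells and less RNA per cycling cell cannot be told apart.

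No cell cycle gene of the 34 passed the test between mutant and wild-type jaws, and the measured differences were small. The threshold was an adjusted p of 0.05 (limma on log2(normalized count + 0.5), Benjamini-Hochberg over 17979 genes), and 2 genes, 0.0111% of all tested, passed it. With so few genes passing at all, a count of 0 does not set the 34 apart from other genes. Every one of the 34 had an adjusted p of 0.9999, which was also the lowest among the 132 other cell cycle genes tested. The adjustment gave this same value to genes of very different unadjusted p, so it does not measure how alike the genotypes were. At an unadjusted p under 0.05 the count was also 0 of 34, against 4.27% of all tested genes. The log2 fold changes, mutant over wild type, ran from -0.25 for the mitotic kinase Plk1 to 0.15 for the ribonucleotide reductase subunit Rrm1, with 14 genes above 0 and 20 below. Their median was -0.011, against 0.0025 over all genes tested. The 95% intervals of all 34 lay within a 2-fold change in either direction, and 31 of them lay within 1.5-fold. Of all 17979 genes tested, 12428 had intervals within 2-fold and 8648 within 1.5-fold. These counts were the same over the 14669 genes with a mean of at least 20. The widest bounds over the 34 were folds of 0.655 and 1.44.

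All 34 genes passed the filter on low values, a mean of at least 1, and the lowest mean among them was 447, for Cdc6. The genotypes did not overlap for 6 genes, 1 higher and 5 lower in mutant, which is 17.6% of the 34. Over all tested genes that share was 27.4%, made of 13.4% higher and 14% lower. The median absolute log2 fold change was 0.049 for the 34 genes, 0.13 for all genes tested and 0.10 for the 14669 genes with a mean of at least 20. For 27 of the 34 the difference between genotypes was smaller than the SD between libraries of the same genotype on the log2 scale, a measure whose median over the 34 was 0.12. That is 79.4% of the 34, where the share was 63.9% of all tested genes and 65.5% of those with a mean of at least 20. The median of that SD was 0.17 over the genes with a mean of at least 20. Neither comparison set was matched to the 34 in level, so these comparisons do not show that the 34 were unusually stable.

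The deposited values summed to between 22134483 and 22578580 per library. On the first principal component over all genes, library 14 lay far from the other 3. Xist, which coats the silenced X chromosome in female cells, was at 38619 and 12.7 (wild type) against 7.64 and 5 (mutant), and the Y-linked Ddx3y was listed at 0 in library 15 and at 2382 or more elsewhere, so the sexes were not balanced between genotypes. Ascl5 itself was at 21.8 and 37.3 (wild type) against 10.6 and 12.1 (mutant), which does not check the labels because the effect of the variant on the transcript is not given. The tooth and jaw transcription factors Msx1 (1402, 1999, 1392 and 1313 in libraries 15, 20, 18 and 14) and Barx1 (955, 1030.2, 588 and 579) were present in all 4 libraries. Both belong to a list of 11 tooth and jaw markers. Of the 11, 8 had a log2 fold change below 0 (5 without overlap) and 3 above 0 (0 without overlap). Over all tested genes 14% were lower without overlap.

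Promoters of 4 mitosis genes and 2 S-phase genes are shown as examples, chosen for the motifs they hold. In the RefSeq promoter windows (GRCm38.p6, 250 bases before to 50 after the start site), 28 of the 34 genes were matched, with 29 windows. Ccne2, Mcm4, Ccna2, Aurkb, Kif20a and Foxm1 were not matched. Each stretch below is the 170 bases just before the start site, read 5′ to 3′ on the strand of the gene, with motif matches on either strand in capitals (ATTGG is a CCAAT box on the opposite strand). The first motif searched was the CCAAT box, which NF-Y binds. The second was the CHR element, which MuvB complexes bind, spelled TTTGAA or, as a variant, TTCGAA. The third was the E2F core in any of 4 forms, namely TTCCCGC, the form TTGGCGC, the form TTCGCGC and the form TTGCCGC.
Cdk1, chr10:69352913-69353082, minus strand: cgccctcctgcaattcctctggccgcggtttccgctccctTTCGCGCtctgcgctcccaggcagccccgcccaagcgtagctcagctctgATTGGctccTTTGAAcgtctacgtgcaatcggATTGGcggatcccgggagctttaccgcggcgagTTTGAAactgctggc
Cdc20, chr4:118437344-118437513, minus strand: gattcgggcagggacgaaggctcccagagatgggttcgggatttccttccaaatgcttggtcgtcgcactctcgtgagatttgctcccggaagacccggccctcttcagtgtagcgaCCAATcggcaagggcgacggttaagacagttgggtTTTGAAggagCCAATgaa
Ccnb2, chr9:70421555-70421724, minus strand: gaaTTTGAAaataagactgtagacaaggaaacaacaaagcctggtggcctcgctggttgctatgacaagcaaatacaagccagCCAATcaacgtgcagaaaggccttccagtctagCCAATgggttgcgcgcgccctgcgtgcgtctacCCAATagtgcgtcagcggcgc
Plk1, chr7:122159265-122159434, plus strand: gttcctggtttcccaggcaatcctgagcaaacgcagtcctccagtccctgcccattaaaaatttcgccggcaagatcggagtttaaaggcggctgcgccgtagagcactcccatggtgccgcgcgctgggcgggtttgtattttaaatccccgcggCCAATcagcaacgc
Mcm6, chr1:128359706-128359875, minus strand: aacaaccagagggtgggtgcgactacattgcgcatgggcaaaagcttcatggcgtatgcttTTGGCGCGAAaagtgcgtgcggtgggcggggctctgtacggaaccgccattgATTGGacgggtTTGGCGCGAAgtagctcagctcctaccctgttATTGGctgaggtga
Mcm5, chr8:75109339-75109508, plus strand: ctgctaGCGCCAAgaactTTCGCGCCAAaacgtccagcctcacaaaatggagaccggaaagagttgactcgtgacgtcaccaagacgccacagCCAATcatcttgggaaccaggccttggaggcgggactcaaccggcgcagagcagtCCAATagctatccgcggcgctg
The first 4 are mitosis genes and the last 2 are S-phase genes. Cdk1 has CHR matches 71 and 15 bases before the start site and Cdc20 has 1 at 18 bases before it, and each has 2 CCAAT boxes in the stretch shown. Ccnb2 has 3 CCAAT boxes and a CHR match 167 bases before the start site, and a further CHR match lies after the start, outside the stretch. The only CHR match of Plk1 also lies after the start, outside the stretch shown. In the stretches shown Mcm6 has 4 E2F cores and Mcm5 has 3, some of them overlapping on opposite strands, with no CHR match in either window. The stretches of Mcm6 and Mcm5 also have 2 CCAAT boxes each, and that of Cdk1 has 1 E2F core.

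Over the whole windows, a CHR element was found in 12 of 15 mitosis genes and in 2 of 13 S-phase genes, against 19.2% of all 32851 promoter windows of the same length. An E2F core was found in 8 of 13 S-phase genes and in 3 of 15 mitosis genes, against 9.57% of all windows. CCAAT boxes were in 14 of 15 mitosis genes and 8 of 13 S-phase genes, against 37.4% of all windows. Among the mitosis genes the median first base of a CHR match was 19 bases before the start site, and that of a CCAAT box 78 bases before it. In 3 places motifs of different kinds overlapped. A match describes only these letters. The median log2 fold change was -0.0069 for the 14 genes with a CHR match and -0.011 for the 14 without.

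**Figure D1:**
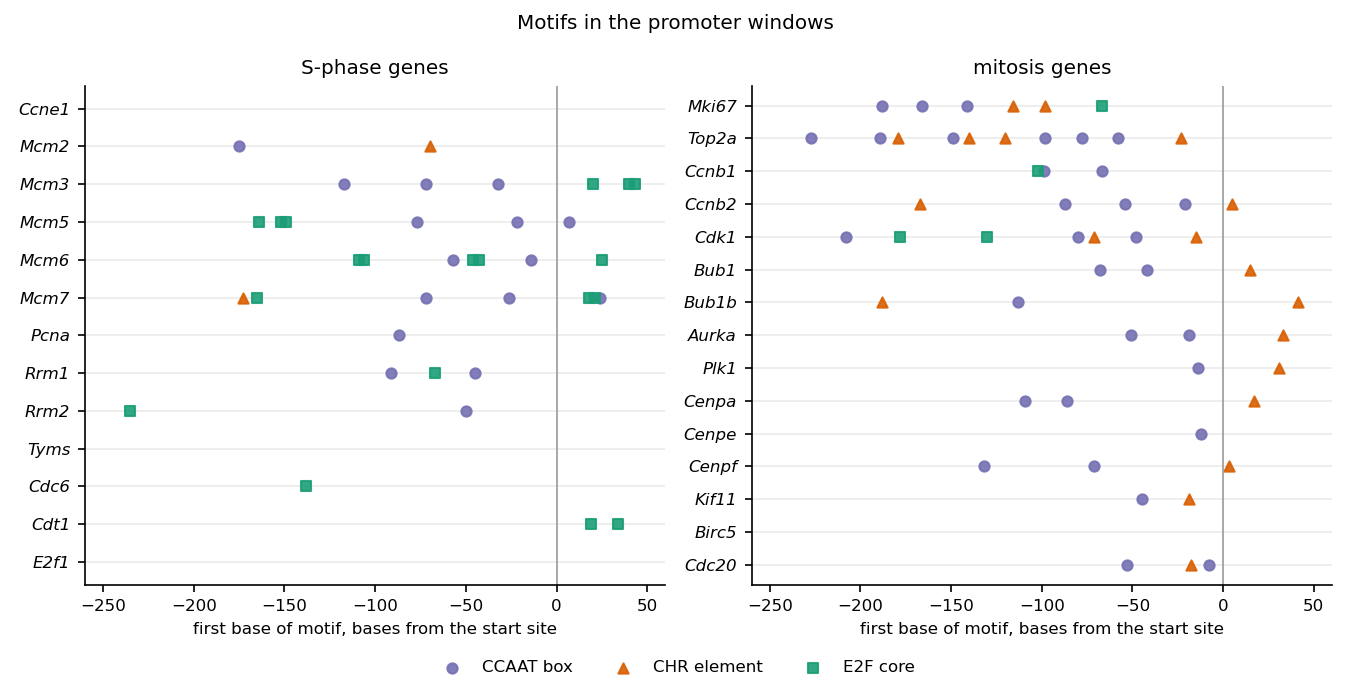
Motif matches in the promoter windows of the 28 matched genes, one row per gene (for Mcm7 the first of its 2 windows). The horizontal axis gives the first base of each match in bases from the start site (0), with circles for CCAAT boxes, triangles for CHR elements and squares for E2F cores. Triangles fall in 12 of 15 rows of mitosis genes and in 2 of 13 rows of S-phase genes.

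Among the regulators of S-phase entry, E2f1, a transcription factor that switches on the replication genes, was at 737 and 625 (wild type) against 578 and 702 (mutant). The values of the 2 genotypes overlapped, with library 15 highest and library 18 lowest (log2 fold change -0.091, 95% interval -0.49 to 0.30). The 2 E-type cyclins, which activate Cdk2 at the start of S phase, were ordered differently over the libraries. Ccne1 was at 652 and 761 (wild type) against 647 and 763 (mutant), so that each genotype had 1 low and 1 high library. Its paralog Ccne2 was at 803 and 918 (wild type) against 967 and 849 (mutant), lowest in library 15 and highest in library 18. Neither cyclin separated the genotypes (log2 fold changes -0.0034 and 0.077).

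Origin licensing needs Cdc6 and Cdt1, which load the MCM helicase onto DNA. Cdc6 was at 423 and 468 (wild type) against 479.9 and 419 (mutant), where library 14 was lowest and library 18 highest, with wild type between them. Cdt1 was at 648 and 559 (wild type) against 466 and 599 (mutant), the lowest S-phase gene by fold change (-0.19, SE 0.18, 95% interval -0.61 to 0.23). Library 15 was its highest and library 18 its lowest, while library 14 lay above wild-type library 20, so the genotypes overlapped.

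The 6 subunits of the MCM helicase, Mcm2 to Mcm7, included the 3 genes with the smallest spread of the 34. Mcm3 was at 1711 and 1809 (wild type) against 1714 and 1760.0 (mutant), Mcm4 at 2281 and 2326 (wild type) against 2421 and 2261 (mutant) and Mcm6 at 3157 and 3386 (wild type) against 3316 and 3197 (mutant). The highest library was no more than 1.07 times the lowest for these 3. Mcm2 was at 1786 and 1998 (wild type) against 1837 and 1861 (mutant), Mcm5 at 1704 and 1958 (wild type) against 1789 and 1777 (mutant) and Mcm7 at 1928 and 2359 (wild type) against 2309 and 2101 (mutant). In every subunit except Mcm4 the 2 wild-type libraries were the lowest and the highest, with both mutant libraries between them. For Mcm4 the 2 mutant libraries were the lowest and the highest. The 6 log2 fold changes ran from -0.035 for Mcm5 to 0.046 for Mcm7.

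Pcna, the sliding clamp of the replication fork, varied most among the S-phase genes, at 2969 and 4196 (wild type) against 4010.1 and 3587 (mutant). Both mutant libraries lay inside the wild-type range, whose upper end was 1.41 times its lower end (log2 fold change 0.10, 95% interval -0.32 to 0.53). Thymidylate synthase, Tyms, which makes thymidylate for DNA, showed the same order of wild-type libraries, at 858 and 1163 (wild type) against 1002 and 1039 (mutant). The mutant values again lay between the wild-type ones.

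The 2 subunits of ribonucleotide reductase, which makes deoxyribonucleotides, were the S-phase genes whose genotypes did not overlap, and they lay in opposite directions. Rrm1, the large subunit, was at 3133 and 3379 (wild type) against 3697 and 3539 (mutant), with both mutant values above both wild-type values (log2 fold change 0.15, SE 0.13, 95% interval -0.15 to 0.45). Rrm2, the small subunit made in S phase, was at 1758 and 1946 (wild type) against 1730.5 and 1750.3 (mutant), with both mutant values below both wild-type values (log2 fold change -0.088, SE 0.13, 95% interval -0.39 to 0.22). The lower wild-type value of Rrm2 was library 15, close to both mutant libraries. Neither gene passed the test (limma, adjusted p = 0.9999).

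**Figure D2:**
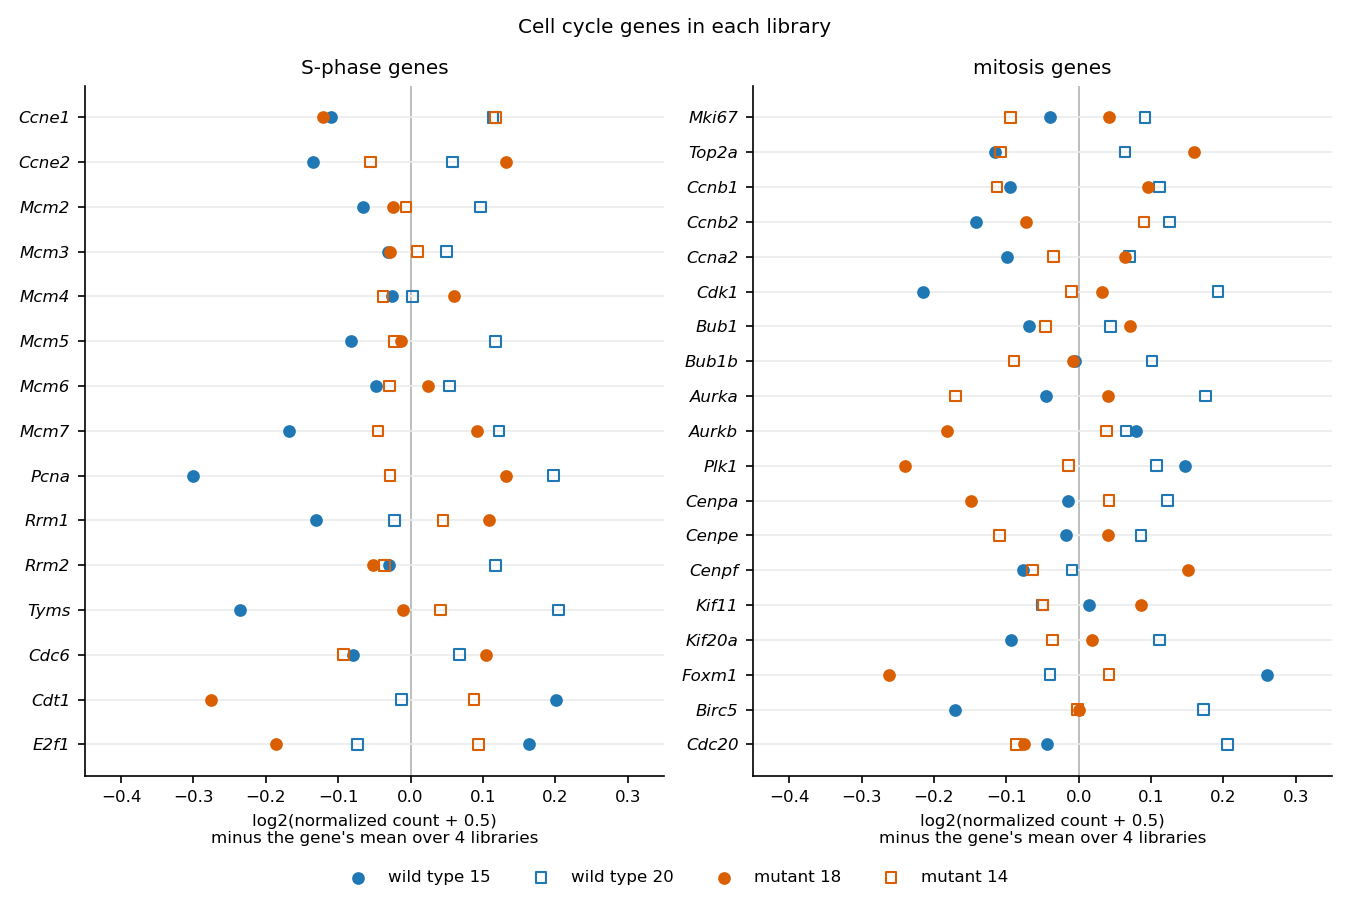
Level of each of the 34 genes in each library, S-phase genes on the left and mitosis genes on the right. The horizontal axis is log2(normalized count + 0.5) minus the mean of the gene over the 4 libraries, with blue for wild type and orange for mutant, filled circles for libraries 15 and 18 and open squares for 20 and 14. Wild-type library 20 is the highest for 20 of the 34 genes and wild-type library 15 the lowest for 17.

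Among the mitosis genes, the cyclin-dependent kinase Cdk1, which drives entry into mitosis, was at 1808 and 2398 (wild type) against 2145 and 2084 (mutant). Its 2 mutant values were close together and lay inside the wild-type range. Of its cyclin partners, Ccnb1 was at 1788 and 2063 (wild type) against 2041 and 1766 (mutant), with 1 high and 1 low library in each genotype. Ccnb2 was at 844 and 1016 (wild type) against 886 and 992 (mutant), and Ccna2, a cyclin of S phase and early mitosis, at 3066 and 3447 (wild type) against 3431 and 3204 (mutant). The genotypes overlapped for all 4 genes, and their log2 fold changes ran from -0.017 for Ccnb1 to 0.028 for Ccna2.

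The polo-like and Aurora kinases and Cdc20 had log2 fold changes below 0. Plk1, the polo-like kinase that matures centrosomes and the spindle, was at 969 and 943 (wild type) against 741 and 867 (mutant). Both mutant values were below both wild-type values (log2 fold change -0.25, SE 0.15, 95% interval -0.60 to 0.086). Aurkb, the kinase of the chromosomal passenger complex, was at 969 and 959.7 (wild type) against 808 and 942 (mutant), where library 14 lay just under the wild-type libraries and library 18 clearly under them. Aurka, the kinase of the spindle poles, was at 721 and 839.8 (wild type) against 765 and 661 (mutant), and the genotypes overlapped. Cdc20, which directs the anaphase-promoting complex to its targets, was at 989 and 1176 (wild type) against 968 and 961 (mutant). The mutant values of Cdc20 were nearly equal and sat just below wild-type library 15. The log2 fold changes of Aurkb, Aurka and Cdc20 were -0.14, -0.13 and -0.16, and none of these genes passed (limma, adjusted p = 0.9999).

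Foxm1, the transcription factor that works with MuvB on mitosis genes, was at 1717 and 1394 (wild type) against 1195 and 1475 (mutant). It had the widest spread of the 34 genes, 1.44 times from lowest to highest, with library 15 at the top and library 18 at the bottom (log2 fold change -0.22, SE 0.17, 95% interval -0.61 to 0.17). Library 14 lay inside the wild-type range, so the genotypes overlapped. Birc5, or survivin, a partner of Aurkb in the passenger complex, was at 1151 and 1459.6 (wild type) against 1296 and 1294 (mutant). The 2 mutant values of Birc5 were almost the same and lay between the wild-type ones.

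The spindle checkpoint kinases Bub1 and Bub1b hold back anaphase until chromosomes are attached. Bub1 was at 1101 and 1190.1 (wild type) against 1213 and 1119 (mutant) and overlapped between genotypes. Bub1b was at 1602 and 1724 (wild type) against 1598 and 1510.2 (mutant), lower in both mutant libraries, with library 18 only just below wild-type library 15 (log2 fold change -0.10, 95% interval -0.40 to 0.21). The centromere and kinetochore genes overlapped as well. Cenpa, the histone H3 variant of centromeres, was at 883 and 972 (wild type) against 805 and 919 (mutant). The kinetochore motor gene Cenpe was at 1699 and 1826 (wild type) against 1769.8 and 1595 (mutant), and Cenpf at 1863 and 1952 (wild type) against 2181 and 1879.8 (mutant). Cenpf was highest in library 18, with the other mutant library within the wild-type range.

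Kif11, the motor that pushes spindle poles apart, was at 2477 and 2369.9 (wild type) against 2606 and 2371 (mutant), and Kif20a, a motor of cytokinesis, at 1417 and 1634 (wild type) against 1531 and 1475 (mutant). In both genes the values of the genotypes overlapped (log2 fold changes 0.037 and -0.018). Top2a, the topoisomerase that untangles chromosomes, was at 6073 and 6879.9 (wild type) against 7352 and 6105 (mutant). Mki67, which encodes the proliferation antigen Ki-67 that coats mitotic chromosomes, was at 8151 and 8931 (wild type) against 8631 and 7851 (mutant). The genotypes overlapped in both, and the log2 fold change of Mki67 was -0.052 (95% interval -0.39 to 0.29).

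**Figure D3:**
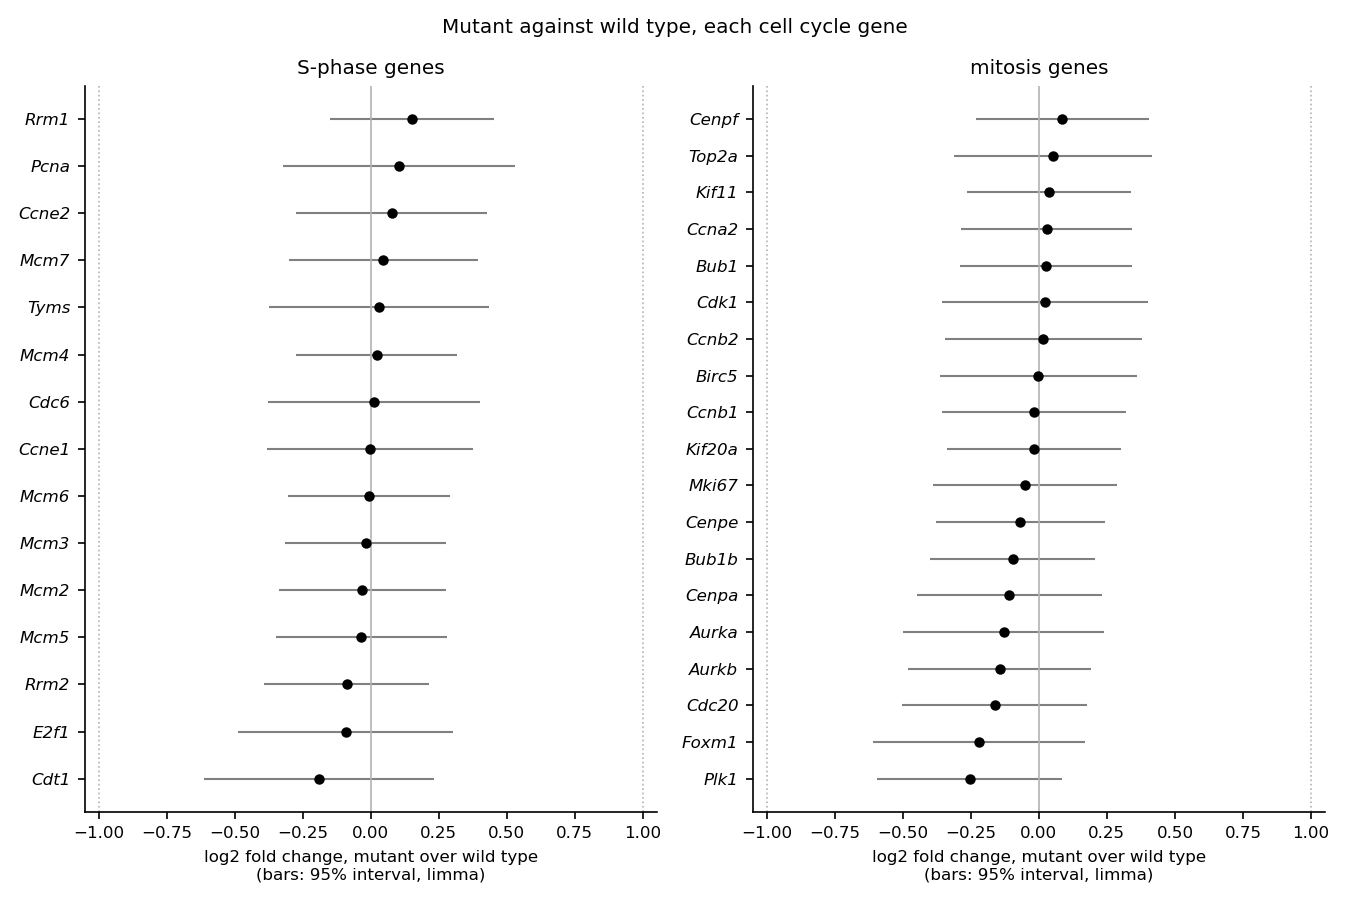
Log2 fold change of each gene, mutant over wild type, with its 95% interval from limma, S-phase genes on the left and mitosis genes on the right. Dotted lines mark a 2-fold change in either direction. Every interval includes 0 and lies inside the dotted lines, with Rrm1 highest (0.15) and Plk1 lowest (-0.25).

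Levels of different genes were compared only per length, as mean normalized counts per 1000 bases of the longest protein-coding transcript in GENCODE M21. On that scale Pcna was highest at 2431, followed by Top2a at 1265 and Ccna2 at 1109. Cdc6 was lowest at 96.9, below Cenpf at 177 and Cenpe at 218. The long Mki67 transcript came to 834, close to Rrm1 at 859.9. The annotation of the authors' counting is not given in the sources used here, so these levels rest on transcript lengths that may not be theirs.

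The 2 phases were then set side by side within each library. The summed S-phase level was 24549 and 27853 (wild type) against 26963 and 26204 (mutant) normalized counts. The summed mitosis level was 39287 and 43176 (wild type) against 41963 and 39070 (mutant). For both sums library 20 was highest and the genotypes overlapped. Together the 34 genes held between 0.286% and 0.315% of all normalized counts in a library.

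On the log2 scale, with each gene taken relative to its own mean, the mean of the S-phase genes was -0.072 and 0.073 (wild type) against -0.0039 and 0.0028 (mutant). The mean of the mitosis genes was -0.039 and 0.092 (wild type) against -0.0099 and -0.043 (mutant). The mitosis mean minus the S-phase mean was 0.033 and 0.019 (wild type) against -0.0060 and -0.046 (mutant), so both mutant libraries lay below both wild-type libraries. That difference between genotypes was -0.052 (mutant minus wild type), where the SD within genotypes was 0.021. With a library left out it lay between -0.071 and -0.032. It is given as a description, with no test. The same contrast over the further mitosis and replication genes was 0.046 and -0.029 (wild type) against -0.0046 and -0.013 (mutant), so there the genotypes overlapped, with a difference of -0.017 and an SD within genotypes of 0.038. The medians were closer than the means, with a median log2 fold change of -0.0034 for the S-phase genes and -0.018 for the mitosis genes. Without wild-type library 15 these medians were -0.082 and -0.12, the lowest of any run with a library left out. Each median was above 0 in some other such run.

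The 2 wild-type libraries differed from each other in the same direction for most of the 34 genes. Library 15 was below library 20 for 28 of the 34 genes, and the same share over all genes was not counted. Library 15 was the lowest of the 4 for 17 genes (50%) and library 20 the highest for 20 (58.8%), where over the 14669 genes with a mean of at least 20 these shares were 27.5% and 25.3%. Only 5 of the 34 were highest in library 15, and they were E2f1, Cdt1, Foxm1, Plk1 and Aurkb, which were named after their values were seen. Library 15 is also the library with high Xist, whose part in these values was not tested.

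The fold changes varied with the base composition of the transcripts, which the choice of genes did not use. Of the 13 genes whose longest protein-coding transcript had at least 50% G and C, 12 had a log2 fold change below 0, Mcm7 being the exception. Of the 21 genes under 50%, 13 lay above 0. The median log2 fold changes were -0.097 and 0.022. Plk1 (56% G and C), Foxm1 (54.6%), Cdt1 (58.8%) and Cdc20 (55.6%) combined a high content with the lowest fold changes, and Rrm1 (44.4%) and Pcna (45.3%) lay at the other end. The cut at 50% was chosen after the values were seen, and the shares over all genes on each side of it were not counted.

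Across the 34 genes, which share the same 4 libraries and are not replicates, Pearson's r between GC content and the log2 fold change was -0.663, and it was -0.838 across the 19 mitosis genes and -0.684 across the 15 S-phase genes. Across 14164 genes with a mean of at least 20 and a known transcript it was -0.123 (Spearman -0.235, against -0.652 across the 34). A like relation was seen within the mutant genotype, where library 18 minus library 14 gave r = -0.695 (Spearman -0.681) across the 34 genes and -0.244 across all those genes. Wild-type library 15 minus library 20 gave 0.338 (Spearman 0.0848) and 0.0647. After each library was corrected for a smooth trend on GC content over all genes, r across the 34 genes was -0.354. It was -0.688 across the mitosis genes and -0.261 across the S-phase genes. With this correction the lowest log2 fold change was -0.21 in place of -0.25, and the mitosis minus S-phase difference was -0.064. The correction was chosen after the values were seen, and the part of base composition in the differences between libraries was not tested further.

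**Figure D4:**
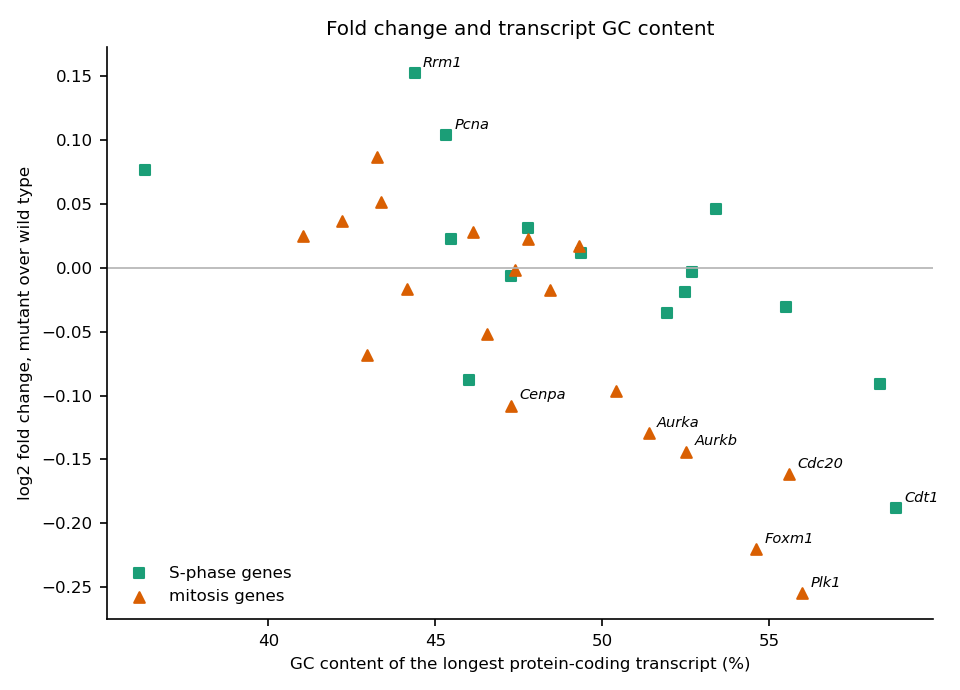
Log2 fold change, mutant over wild type, against the GC content in percent of the longest protein-coding transcript, one point per gene, squares for S-phase genes and triangles for mitosis genes. Genes with an absolute log2 fold change above 0.1 are named. Of the 13 points at 50% or more, a cut chosen after the values were seen, 12 lie below the line at 0.

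The other genes of the cell cycle were taken from lists of further members of each pathway. Of 45 further replication genes tested, 0 passed in either direction, with 21 above and 24 below 0, a median log2 fold change of -0.0021, and 2 higher and 7 lower without overlap (20% in all, against 27.4% of all tested genes). Those with the smallest p were 4 subunits of replication enzymes. The primase subunit Prim2 was at 515 and 605 (wild type) against 658 and 628 (mutant), higher in both mutant libraries. The clamp loader subunit Rfc5 was at 589.7 and 648 (wild type) against 509 and 579 (mutant) and the polymerase subunit Pold2 at 701 and 729 (wild type) against 575 and 689 (mutant), each lower in both mutant libraries. The polymerase subunit Pole2 was at 291 and 375 (wild type) against 419 and 350.5 (mutant) and overlapped.

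Of 56 further mitosis genes tested, 0 passed, with 25 above and 31 below 0, a median of -0.015, and 0 higher and 9 lower without overlap (16.1% in all, against 27.4% of all tested genes, of which 14% were lower). The kinetochore gene Spc24 was at 367 and 432 (wild type) against 309 and 365 (mutant), the separase gene Espl1 at 1028 and 899 (wild type) against 848 and 859 (mutant) and the spindle assembly factor Tpx2 at 2344 and 2531 (wild type) against 2237 and 2143 (mutant). For these 3 genes both mutant libraries lay below both wild-type libraries, in Spc24 only just. The ubiquitin-conjugating enzyme gene Ube2c was at 1227 and 1156 (wild type) against 969 and 1180.2 (mutant) and overlapped.

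Of 13 genes for cyclins, kinases and inhibitors of G1, 0 passed, with 4 above and 9 below 0. Among them 2 were higher and 2 lower without overlap (30.8% in all, against 27.4% of all tested genes). The D-type cyclins, which link growth signals to the cycle, gave small differences. Ccnd1 was at 3936 and 3871 (wild type) against 3656 and 3954 (mutant) and Ccnd3 at 6234 and 5949 (wild type) against 5557 and 6564 (mutant), both overlapping. Ccnd2 was at 8618 and 8661 (wild type) against 7949 and 8220.0 (mutant), lower in both mutant libraries (log2 fold change -0.10, 95% interval -0.42 to 0.22).

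The inhibitors that hold cells out of the cycle differed in the direction of their fold changes. Cdkn1a, or p21, was at 3986 and 3996 (wild type) against 4264 and 4291 (mutant), slightly higher in both mutant libraries, and Cdkn1b, or p27, at 1188 and 1096 (wild type) against 1074 and 996 (mutant), lower in both. Cdkn1c, or p57, was at 23831 and 23060.1 (wild type) against 22196 and 27389.8 (mutant), with library 14 highest. Cdkn2b, or p15, was at 59.7 and 77.2 (wild type) against 97.8 and 97.1 (mutant), with the largest log2 fold change of the inhibitors measured above a mean of 20 (0.52, SE 0.28, 95% interval -0.13 to 1.17; limma, adjusted p = 0.9999). Cdkn2a was near the limit of detection, listed at 0 in library 18 and at no more than 10.1 elsewhere.

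Of 18 genes for E2F factors, pocket proteins and MuvB subunits, 0 passed, with 7 above and 11 below 0, and 1 higher and 6 lower without overlap (38.9% in all, against 27.4% of all tested genes). Mybl2, which encodes B-Myb, the partner of MuvB in S phase, had the lowest log2 fold change of this list and lay below every one of the 34 genes as well (-0.28, SE 0.18, 95% interval -0.71 to 0.14). It was at 554 and 569 (wild type) against 402 and 529 (mutant), where library 18 was far below the others and library 14 just below wild type. E2f3, an activating E2F, was at 1241 and 1145 (wild type) against 1019 and 1085 (mutant), E2f4, a repressing E2F, at 1076 and 939 (wild type) against 780.1 and 986 (mutant), and the MuvB subunit Lin52 at 261 and 243 (wild type) against 305 and 279.5 (mutant). E2f3 was lower and Lin52 higher in both mutant libraries, while E2f4 overlapped. Rb1, the retinoblastoma gene, was at 1562 and 1220.0 (wild type) against 1502 and 1311 (mutant).

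Marker lists of keratinocytes and osteoblasts lay in opposite directions between the genotypes, given as a description with no test over a list. All 14 keratinocyte markers had a log2 fold change above 0, 11 without overlap, where 13.4% of all tested genes were higher without overlap. Their summed level was 107149 and 100231 (wild type) against 169328 and 260735 (mutant). Among these markers Krt5, Krt14 and Trp63 overlapped, so the list did not behave as 1 unit. Krt5 was at 11251 and 19312 (wild type) against 18755 and 22390 (mutant). Krt14 was at 5171 and 9640 (wild type) against 9235 and 10557 (mutant), and Trp63 at 1981 and 2295 (wild type) against 2290 and 2732 (mutant). All 10 osteoblast markers had a log2 fold change below 0, 6 without overlap, where 14% of all tested genes were lower without overlap. Their sums were 711858 and 735782 (wild type) against 610515 and 530820 (mutant). None of the markers in these 2 lists was at 0 in every library. On the same relative log2 scale, the keratinocyte markers differed by 0.90 and the osteoblast markers by -0.45 (mutant minus wild type), where the S-phase genes differed by -0.0012 and the mitosis genes by -0.053. Their part in the cell cycle values was not tested.

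**Figure D5:**
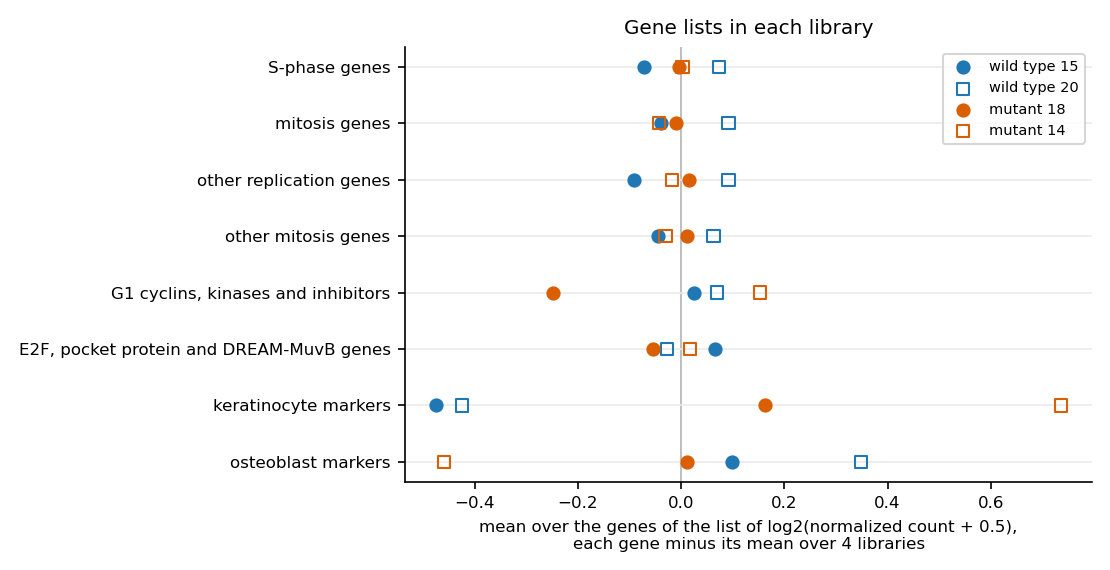
Mean level of 6 cell cycle lists and 2 marker lists in each library, as the mean over the genes of log2(normalized count + 0.5), each gene minus its mean over the 4 libraries. Blue is wild type and orange is mutant, with filled circles for libraries 15 and 18 and open squares for 20 and 14. The S-phase and mitosis points lie between -0.072 and 0.092, while the keratinocyte markers run from -0.47 to 0.74, and the low point of library 18 in the G1 list includes Cdkn2a, listed at 0 there.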

How the data were processed

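The authors deposited 1 normalized count (a signal value, not a raw count) per gene and library. Per the submitters' processing notes DESeq2 and build mm10 were used. Libraries were made with a TruSeq stranded mRNA kit, per the labels' protocols; the sources used here give no aligner, counter, strand setting or annotation. Only 38.0% to 46.8% of low values were whole multiples, within 0.02, of the commonest low value, so whole reads were not recovered and depth is known only as the sums given in the report. Genes sharing reads with near-identical copies or antisense genes are uncertain.

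Values were transformed to log2(value + 0.5), which understates changes of low genes. Genes with a mean of at least 1 were kept (17979 of 24972), and genotype was fitted across all of them by limma (version 3.58.1, R 4.3.3), letting the prior variance follow the mean. Library numbers are sample codes not shared between genotypes, so nothing was paired. The fit was tested on simulated data. Alternatives covered scaling, filter, pseudocount, variance shrinkage, each library left out and, chosen after the data were seen, a correction for GC content. Named genes were all 34 members and, from each further list, the 4 with the smallest p and a fixed set (D-type cyclins, Cdkn1a, Cdkn1b, Cdkn1c, Rb1, Mybl2). Members and lists were chosen with earlier results of these data known. Marker lists for cartilage, salivary gland, muscle, blood, neuron, macrophage and endothelium were also summed. Coordinates and promoters are from RefSeq GRCm38.p6, the assembly mm10 denotes.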

Additional observations from a re-analysis of the deposited data

How the results depend on the processing

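Under the 13 alternatives, 0 of the 34 genes were called, and 10 of the 34 kept the sign of their log2 fold change in each (Aurka, Aurkb, Bub1b, Cdc20, Cdt1, Cenpa, Foxm1, Plk1, Rrm1 and Rrm2). The lowest unadjusted p of any of the 34 under an alternative was 0.0707, without mutant library 14 (limma, adjusted p = 0.99). The mitosis minus S-phase difference stayed below 0 in all 14 alternatives run for it, the last with Ccna2, Foxm1 and Top2a left out of the mitosis genes. Scaling nearly cancels in this difference, and the filter and variance settings do not enter it, so those runs could not move it (-0.052 in each). The pseudocounts hardly can. It was free to move with the GC correction (-0.064), with a library left out (-0.071 to -0.032) or with the named genes left out. The count of all genes called was 2 in the main analysis, 1 with no filter, 1 with no mean-variance trend, 4 with robust shrinkage, 3 with a pseudocount of 5 and 1 with the GC correction, 2 under the other scalings, filter and pseudocount, and 0 to 5 with a library left out (5 without wild-type library 20, and 0 without wild-type library 15, mutant 18 or mutant 14, where 538, 1209 and 446 genes had an unadjusted p under 0.05). With a library left out, the S-phase median ran from -0.082 to 0.065 and the mitosis median from -0.12 to 0.014; the lone library left in a genotype is then assumed to vary like the others. Scaling to equal totals turned the log2 fold changes of Ccne1 (0.0060), Mcm6 (0.0034) and Birc5 (0.0079), as did scaling to upper quartiles (0.0069, 0.0042 and 0.0088). The GC correction turned Ccne1 (0.019), Ccne2 (-0.016), Mcm2 (0.012), Mcm3 (0.0025), Bub1 (-0.032) and Kif11 (-0.011). Leaving out a library turned 24 genes, with these ranges: Birc5 -0.17 to 0.17, Bub1 -0.033 to 0.083, Ccna2 -0.056 to 0.11, Ccnb1 -0.12 to 0.088, Ccnb2 -0.12 to 0.15, Ccne1 -0.12 to 0.12, Ccne2 -0.020 to 0.17 and Cdc6 -0.086 to 0.11; Cdk1 -0.18 to 0.23, Cenpe -0.14 to 0.0069, Cenpf -0.021 to 0.19, E2f1 -0.23 to 0.048, Kif11 -0.031 to 0.10, Kif20a -0.12 to 0.085, Mcm2 -0.11 to 0.050 and Mcm3 -0.059 to 0.022; Mcm4 -0.027 to 0.072, Mcm5 -0.14 to 0.065, Mcm6 -0.056 to 0.044, Mcm7 -0.10 to 0.19, Mki67 -0.12 to 0.017, Pcna -0.15 to 0.35, Top2a -0.082 to 0.19 and Tyms -0.19 to 0.25. The cause of these turns was not tested. No paired analysis was possible because the genotypes share no library numbers.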

Other observations

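The promoter motifs were also counted in the cell cycle genes outside the 34. A CHR element was found in 72.2% of the 54 matched windows of further mitosis genes and in 17.8% of the 45 windows of further replication genes, against 19.2% of all windows. An E2F core was found in 57.8% of the windows of further replication genes and in 22.2% of those of further mitosis genes, against 9.57% of all windows. In the windows of G1 cyclins, kinases and inhibitors the shares were 7.14% for the CHR element and 21.4% for the E2F core.

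Across 131 cell cycle genes outside the 34 with a mean of at least 20, Pearson's r between transcript GC content and the log2 fold change was -0.391, and it was -0.71 for mutant library 18 minus mutant library 14. After the correction for GC content the first was -0.0446. Spearman's coefficient for the first was -0.49 before the correction and -0.177 after it.

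Of the other marker lists, the salivary gland genes summed to 545, 453, 624 and 6135 in libraries 15, 20, 18 and 14, and the cartilage genes to 55715, 43507, 38454 and 33504. The erythroid genes summed to 259955, 112299, 108872 and 269886, high in 1 library of each genotype, and the skeletal muscle genes to 137175, 103230, 156638 and 82864. The neuron genes summed to 947, 1114, 935 and 2258, the macrophage genes to 5758, 6701, 7997 and 5687, and the endothelial genes to 10800, 10509, 10960 and 10402.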
